A study of Caenorhabditis elegans with 4 samples.

Results

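The genes described here are 10 genes of sex determination and X chromosome dosage compensation in Caenorhabditis elegans: xol-1, sdc-1, sdc-2, sdc-3, dpy-21, dpy-26, dpy-27, dpy-28, dpy-30 and her-1. They are 10 of 19973 protein-coding genes on the nuclear chromosomes. They were chosen by name, with earlier results of these data known, and every region whose summit lay in the gene body or within 6 kb of it was collected from each peak list. The position and the signal of the regions chose and ordered the values below, so they are given as a description with no test.

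The data come from chromatin immunoprecipitation with sequencing (ChIP-seq) of whole L4 larvae, the last larval stage, with both sexes pooled. The animals were of strain OP174, which carries the unc-119(ed3) mutation and the integrated transgene wgIs174, a ces-1 copy tagged with TY1, EGFP and FLAG together with unc-119. CES-1 belongs to the Snail family of zinc finger transcription factors. All 4 biological replicates form 1 group with nothing to set against it, and signal from every cell of the animal is mixed. Fragments of 150 to 350 bp are noted for replicates 1 and 2, and microtip sonication for replicates 3 and 4.

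In worms, XX animals are hermaphrodites and XO animals are males. xol-1 is the switch that the count of X chromosomes sets early in the embryo: where it is active, male development follows. Where it is off, SDC-2 together with SDC-1, SDC-3 and DPY-30 brings a condensin-like complex containing DPY-26, DPY-27 and DPY-28 to both X chromosomes, and lowers their expression. The SDC proteins also repress her-1, an autosomal gene whose product promotes male fate.

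Each library has a list of 30000 regions, and a pooled list holds 25493 regions. From these, 1033 peaks passed the irreproducible discovery rate (IDR) step, which compares how regions rank between libraries. An IDR peak need not be listed in every library, as the one near mix-1 described below shows. The IDR peaks in the windows of the genes described here had the same rank in the pooled list as in the IDR list. The pooled list is labelled as peaks and background that served as input for IDR, so a region in it need not be a peak. The library lists all stop at 30000 regions, with lowest signals of 2.3, 3.2, 2.2 and 4.2 in replicates 1 to 4. Their median signals were 4.11, 5.13, 3.66 and 6.13, and weak regions in them may also be background. The authors' signal value of a region has no stated scale, so regions are compared by rank within a list, with rank 1 the strongest. Read depth is unknown.

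The 2 strongest sites near these genes lay upstream of xol-1 and of dpy-28, and they were the only IDR peaks near any of the 10. Their signals and ranks are the same in the pooled and the IDR list, so these 2 statements are not independent. An IDR peak was present for 2 of 10 genes, against 12.0% of all protein-coding genes by the same window. Over only 10 genes this count is close to that background. The nearest IDR peak outside the windows lay 11460 bp from dpy-27 (signal 58.8, rank 524). The sequences around the summits of these peaks, and of the other 2 sites that all 4 libraries shared, are shown because they are the recurrent sites of the set. They are 101 bp of the forward strand of the RefSeq genome WBcel235 (ce11), centred on the pooled summit. Capitals mark CANNTG, the E-box, and GCGCAGGG on either strand, which is part of the motif known from the sites on X where the dosage compensation complex is recruited.
xol-1, chrX:8036351-8036451: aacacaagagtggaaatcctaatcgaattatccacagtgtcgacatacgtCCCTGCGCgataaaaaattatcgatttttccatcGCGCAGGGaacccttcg
dpy-28, chrIII:10759199-10759299: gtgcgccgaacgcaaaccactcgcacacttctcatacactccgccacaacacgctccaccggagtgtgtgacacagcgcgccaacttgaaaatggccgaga
her-1, chrV:9704610-9704710: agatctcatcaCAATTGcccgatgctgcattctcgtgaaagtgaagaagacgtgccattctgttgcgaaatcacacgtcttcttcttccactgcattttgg
dpy-27, chrIII:3820105-3820205: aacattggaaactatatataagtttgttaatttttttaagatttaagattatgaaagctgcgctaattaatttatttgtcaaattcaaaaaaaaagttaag

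Each of these 4 sequences occurred once in the nuclear genome. Their GC content was 44.6% at xol-1, 58.4% at dpy-28, 45.5% at her-1 and 19.8% at dpy-27. The median over the 36 pooled regions near the genes was 30.7%, and over all 25466 nuclear pooled regions 33.7%.

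The xol-1 gene lies on the X chromosome from 8041313 to 8044409 on the forward strand. Its IDR peak, from 8036296 to 8036505, peaked between genes, 4912 bp upstream of the 5′ end. xol-1 was the nearest protein-coding gene, and a non-coding RNA gene, C18A11.13, had its 5′ end 273 bp away. The pooled signal was 164.4, rank 48 in both the pooled and the IDR list. In replicates 1 to 4 the signal of this site was 41.0, 31.8, 13.5 and 85.5, at ranks 75, 247, 217 and 20. The site was thus strong in every library, with its strongest rank in replicate 4 and its weakest rank in replicate 2. Summits of the libraries lay 4890, 4954, 4885 and 4884 bp upstream, a range of 70 bp. A transfer RNA gene, WBGene00022939, also lies close to this site. Replicate 2 listed a further region 33 bp from its 5′ end, 4523 bp upstream of xol-1 (signal 10.6, rank 3272).

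In the xol-1 sequence printed above, 2 copies of GCGCAGGG lay on opposite strands, pointing away from each other. One, written as its reverse complement CCCTGCGC, lay from 8036401 to 8036408 and began at the pooled summit. The other, from 8036435 to 8036442, began 34 bp further on. Summits of replicates 1, 3 and 4 fell between these copies, and that of replicate 2 fell upstream of both. Within 50 bp of the summit these letters were present at 1 of 36 pooled regions near the genes, against 0.0785% of all nuclear pooled regions and 0.894% of all nuclear IDR peaks. No E-box lay in this window. The letters were searched for after the xol-1 sequence had been seen, so the match is a description and not a test, and binding of the dosage compensation complex was not measured here.

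Nothing else near xol-1 was as strong. Its window held 5 further pooled regions, with signals of 12.2 to 20.8, of which 4 lay downstream, nearer the 5′ ends of C18A11.4 or of dim-1, a gene of muscle structure. The gene body held no pooled region. Library regions numbered 4, 10, 6 and 12 in replicates 1 to 4, with a mean of 8 ± 3.65 (SD, n = 4).

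**Figure D1:**
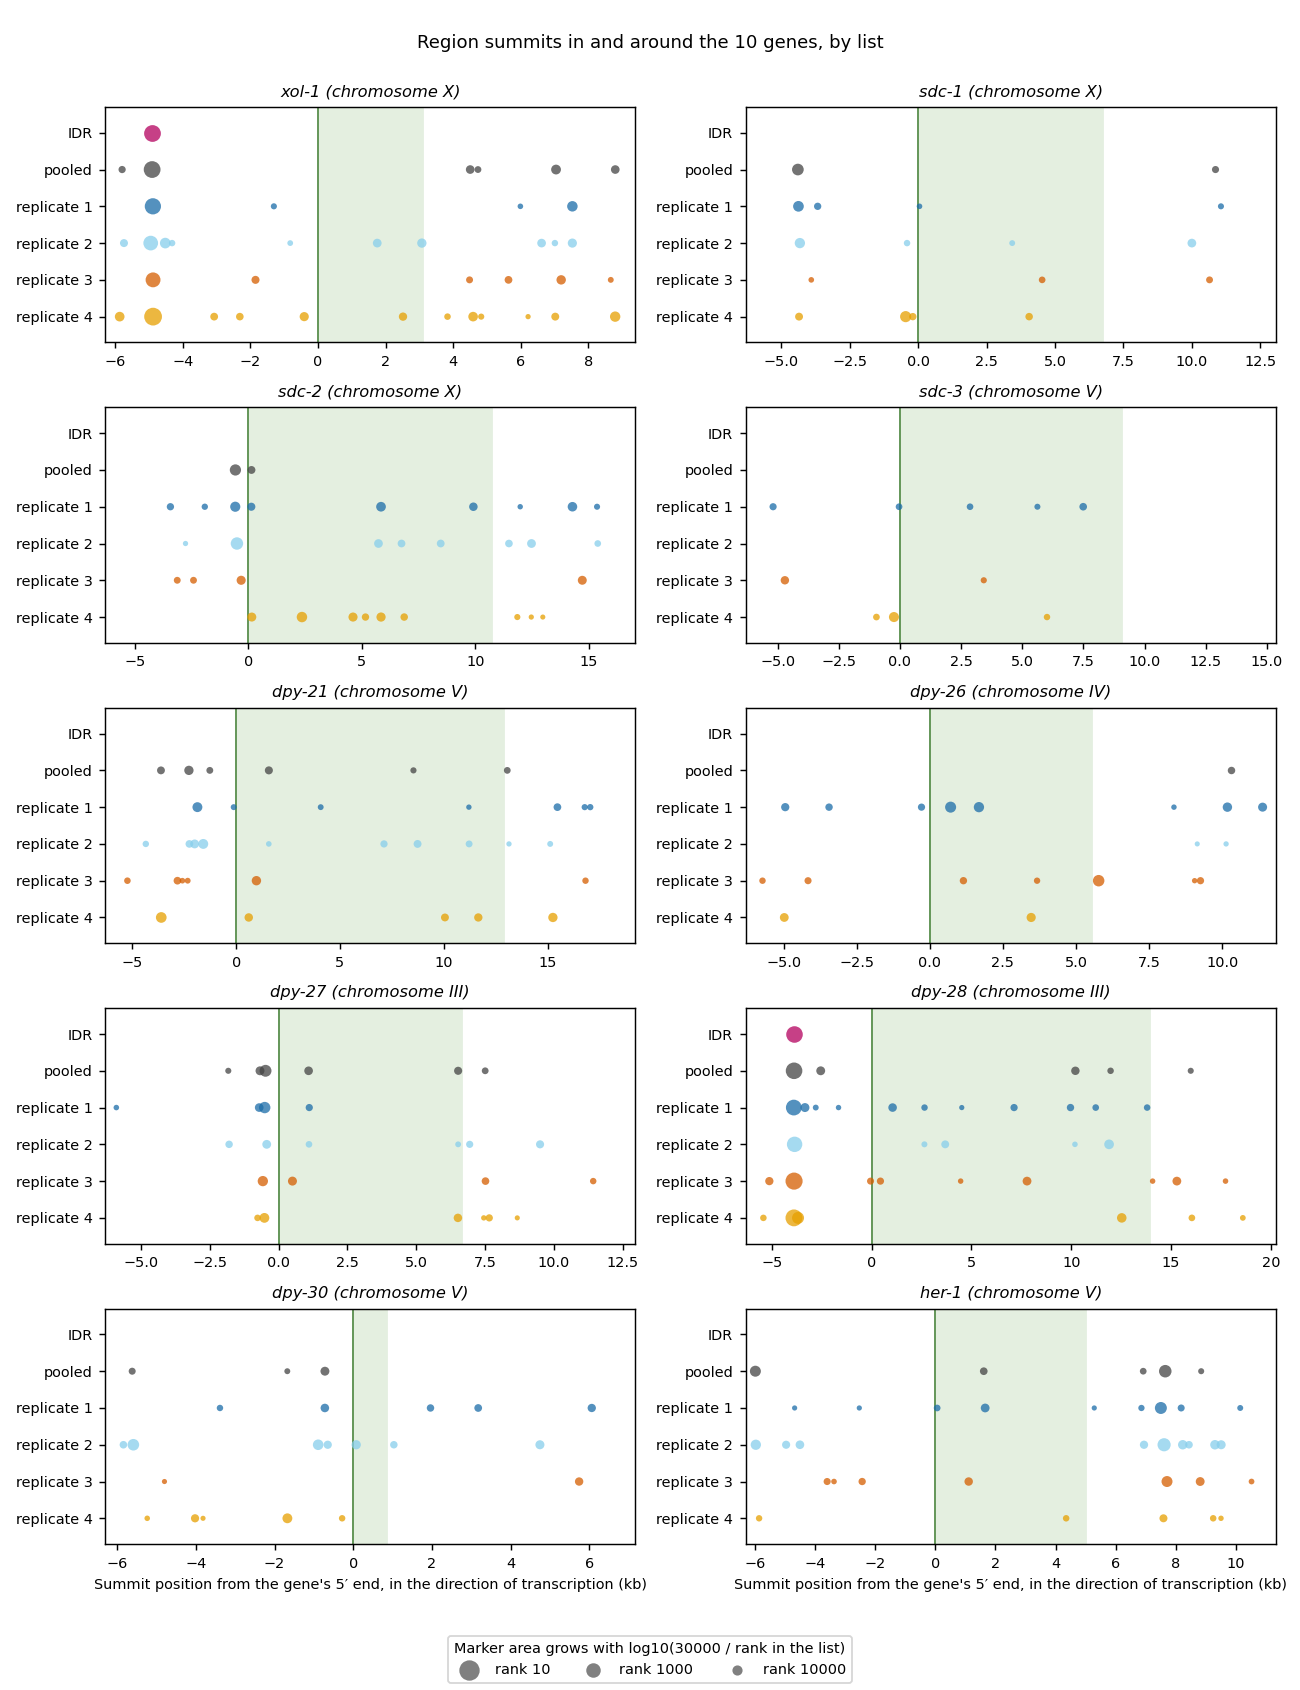
Positions of region summits around the 10 genes, with distance from each gene's 5′ end in kb on the horizontal axis (shaded: gene body) and 1 row per list: IDR, pooled and replicates 1 to 4. Larger markers have stronger ranks; columns of large markers stand 4912 bp upstream of xol-1 and 3882 bp upstream of dpy-28, and sdc-3 has no pooled region.

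dpy-28 encodes a condensin subunit with HEAT repeats that serves both dosage compensation and mitotic condensin. The gene lies on chromosome III from 10763131 to 10777076 on the forward strand. Its IDR peak, from 10759077 to 10759420, had its summit 3882 bp upstream of dpy-28. The nearest protein-coding 5′ end was that of tasp-1, the worm relative of the protease Taspase, 58 bp away. The pooled signal was 154.0, at rank 57. Signals in replicates 1 to 4 were 35.0, 38.6, 29.9 and 46.3, at ranks 109, 144, 36 and 44. All 4 libraries ranked the site high, replicates 3 and 4 above replicates 1 and 2, and their summits lay within 40 bp of each other. No E-box and no GCGCAGGG lay within 50 bp of the pooled summit. Replicate 4 listed a second, overlapping region with its summit 3682 bp upstream (signal 12.6, rank 1540).

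The remaining 4 pooled regions of the dpy-28 window were weak, with signals of 10.9 to 17.3. Of these, 2 lay in the dpy-28 gene body, at 10207 bp (signal 16.0, in an intron) and 11970 bp (11.6, in a coding exon) from the 5′ end. The first was matched in replicates 1 and 2, the other in replicate 2.

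her-1 encodes a secreted protein that binds and inhibits the receptor TRA-2, and thereby promotes male development. The gene, on the forward strand of chromosome V, runs from 9697015 to 9702035. Its strongest pooled region, from 9704488 to 9704831, lay downstream of the gene with its summit 7645 bp from the her-1 5′ end, in an intron of xbx-6. The pooled signal was 42.5 and the rank 1106. The lowest signal of any IDR peak was 44.2, so this region lay just outside that list. In replicates 1 to 4 the site had signals of 11.8, 20.5, 6.9 and 6.8, at ranks 1541, 735, 2758 and 11447. It ranked highest in replicate 2 and was weak in replicate 4. The printed sequence holds 1 E-box, CAATTG.

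Another her-1 region lay at the edge of the window, 5981 bp upstream (9690862 to 9691205, pooled signal 27.6, rank 2736). It was 512 bp from the 5′ end of rbx-1, which encodes a RING protein of cullin ubiquitin ligases, and was matched in replicates 1, 2 and 4 at ranks 6074, 4022 and 20556. This was the pooled summit just inside the 6 kb border, and the nearest one outside lay 6238 bp from dpy-30, with a signal of 11.4. Within the her-1 gene body there was 1 pooled region, in an intron 1611 bp from the 5′ end (signal 14.0), matched in replicate 1 alone. The last 2 pooled regions of the window were weak ones at xbx-6 (signals 12.1 and 10.8). A copy of GCGCAGGG lay in a her-1 intron, 1976 bp from the 5′ end, from 9698991 to 9698998. No list had a region over it.

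dpy-27 encodes the SMC4-like subunit that distinguishes the dosage compensation condensin from the mitotic ones. It lies on chromosome III from 3813018 to 3819679 on the reverse strand. Its strongest pooled region, from 3819983 to 3820326, peaked 476 bp upstream of the 5′ end, at a signal of 35.9 and rank 1622. A second region overlapped it, with its summit 677 bp upstream (signal 17.4, rank 7788), and a non-coding RNA gene, R13G10.5, has its 5′ end between these summits. Signals in replicates 1 to 4 were 10.3, 6.9, 6.2 and 9.0, at ranks 2179, 8149, 4009 and 5090. Every library thus had a region here, none among its 2000 strongest. In the libraries the summits lay 506, 433, 574 and 517 bp upstream. Replicates 1 and 4 also listed a weaker region here, with summits 706 and 766 bp upstream, at ranks 8690 and 19425.

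The dpy-27 window held 4 more pooled regions with signals of 10.9 to 16.5. One lay in an intron 1089 bp from the 5′ end (signal 16.5, matched in replicates 1 and 2), and one in the 3′ untranslated region (15.1, matched in replicates 2 and 4). The others lay outside the gene, nearer the 5′ ends of toh-1 and amx-1.

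**Figure D2:**
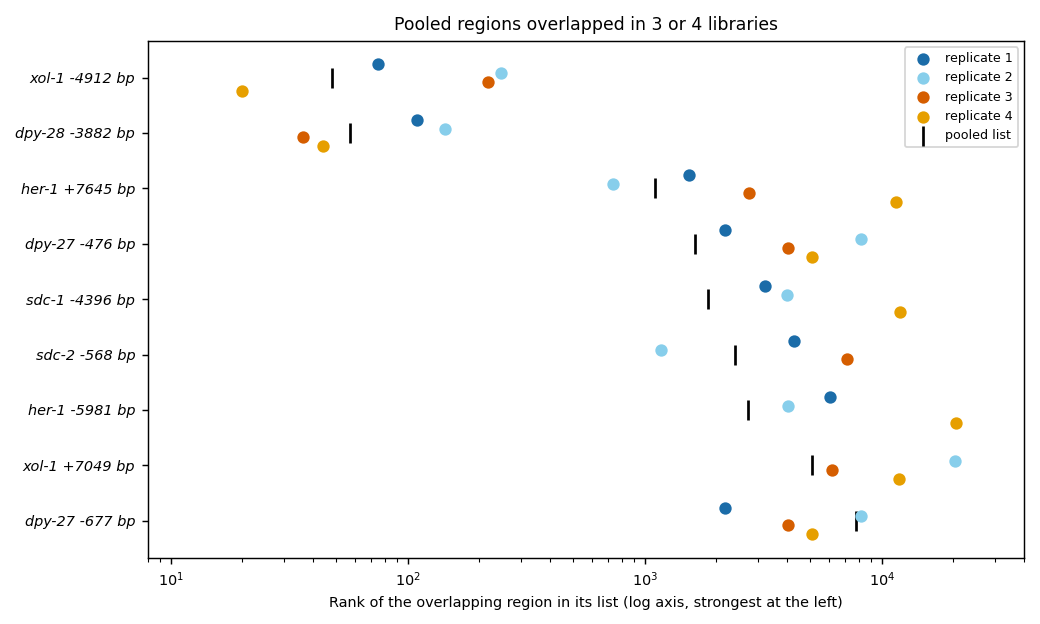
Ranks, on a log axis with the strongest at the left, of the 9 pooled regions near the 10 genes that were overlapped by a region in 3 or 4 libraries; each point is 1 library and each bar the pooled list, and labels give the summit in bp from the gene's 5′ end. The xol-1 and dpy-28 sites lie at ranks 20 to 247 and 36 to 144, apart from the others. Points show the strongest overlapping region of a library, and for the last site, 677 bp upstream of dpy-27, these are the same as for the one 476 bp upstream.

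The sdc genes encode the proteins that direct the complex to X and repress her-1. sdc-2, the hermaphrodite-specific member, lies on X from 11522707 to 11533450 on the forward strand. A pooled region from 11521967 to 11522310 peaked 568 bp upstream of the gene, at a signal of 29.8 and rank 2393. The matching regions had signals of 7.7, 16.9 and 5.1 in replicates 1 to 3, at ranks 4280, 1175 and 7152, and replicate 4 had none there. In replicate 4 the strongest sdc-2 region lay inside the gene instead, 2362 bp from the 5′ end (signal 9.9, rank 3660). A second pooled region lay in the first part of the sdc-2 coding sequence, 139 bp from the 5′ end, with a signal of 14.6, and was matched in replicates 1 and 4.

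sdc-1, which encodes a zinc finger protein, lies on X from 16275763 to 16282534 on the forward strand. Its strongest pooled region, from 16271195 to 16271538, had its summit 4396 bp upstream, at a signal of 33.9 and rank 1845. That summit fell in a transfer RNA gene, WBGene00014388, and the nearest protein-coding 5′ end, at 1298 bp, was that of the intermediate filament gene ifa-3. Replicates 1, 2 and 4 had signals of 8.6, 9.7 and 6.7 there, at ranks 3225, 3975 and 11938, and replicate 3 had no region. Near the sdc-1 5′ end itself no pooled region was listed. Replicate 4 had a region with its summit 457 bp upstream (signal 11.0, rank 2518), which was its strongest near the gene. Replicate 2 had a weak one at 406 bp (4.3, rank 20181), replicate 1 one at 49 bp into the gene (2.6, rank 26214), and replicate 3 none there.

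sdc-3 also encodes a zinc finger protein, and the gene occupies 15039148 to 15048207 of chromosome V, reverse strand. It was the 1 gene of the 10 with no pooled region in its window. Replicate 2 also had no region there. Replicates 1, 3 and 4 listed 5, 2 and 3 regions, of which the strongest ranked 13342, 9722 and 4505. They were not at the same place: the strongest of replicate 4 lay 245 bp upstream of the 5′ end, that of replicate 1 lay 7488 bp into the gene, and that of replicate 3 lay 4702 bp upstream. Replicate 1 had a weak region 37 bp upstream of the 5′ end (signal 3.5, rank 18751).

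dpy-21 encodes a Jumonji-domain demethylase of histone H4 lysine 20 that acts with the complex on X. It occupies 17936282 to 17949193 of chromosome V, reverse strand. Its 6 pooled regions had signals of 11.1 to 18.7, and 5 of them were matched in a single library. The strongest, 2274 bp upstream (17951295 to 17951638, rank 6516), lay 482 bp from the 5′ end of Y59A8B.24. The strongest dpy-21 regions of replicates 1 to 4 ranked 4858, 4866, 6241 and 3233, with signals of 7.3, 8.8, 5.4 and 10.3. Those ranks are close to each other, but the places differ: 1865, 1583 and 3605 bp upstream in replicates 1, 2 and 4, and 975 bp into the gene in replicate 3.

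dpy-26, the kleisin subunit gene on chromosome IV from 12445801 to 12451335 on the reverse strand, had 1 pooled region. It lay downstream, in a coding exon of another gene, at a signal of 13.6 and rank 14131. The libraries differed widely at dpy-26. Replicates 1 and 3 listed 8 and 7 regions, with best ranks of 2675 and 2067, while replicates 2 and 4 listed 2 each, with best ranks of 28370 and 6946. The best regions of replicates 1 and 3 were at different places, 708 bp and 5773 bp from the 5′ end, and neither overlapped a pooled region.

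dpy-30 encodes a small protein shared by the dosage compensation complex and the SET1/MLL-type histone H3 lysine 4 methyltransferase complexes. The gene occupies 12191519 to 12192385 of chromosome V, forward strand. Its strongest pooled region, from 12190628 to 12190971, had its summit 719 bp upstream, at a signal of 17.4 and rank 7766. Replicates 1 and 2 had regions there, at ranks 9154 and 3448, and replicates 3 and 4 had none. The best rank near dpy-30 in any library, 1954 in replicate 2, belonged to a region 5586 bp upstream, nearest to srd-4. The pooled region there was overlapped in replicate 2 alone. The third pooled region, 1675 bp upstream, was matched in replicate 4 alone (signal 9.1, rank 4960).

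**Figure D3:**
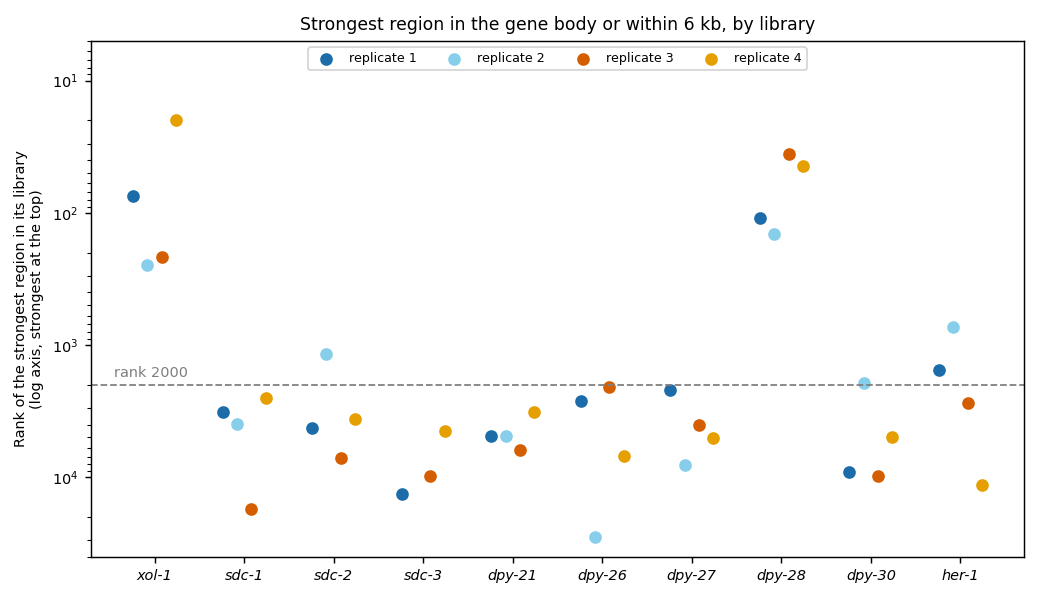
Rank, on a log axis with the strongest at the top, of the strongest region of each gene in each of the 4 libraries; the dashed line is rank 2000. At xol-1 and dpy-28 all 4 libraries lie above the line, while sdc-3 has no point for replicate 2 and dpy-26 runs from 2067 to 28370.

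The 10 genes were set beside all protein-coding genes. A pooled region was present for 9 of 10 genes, against 90.3% of protein-coding genes. Any region was present for 10, 9, 10 and 10 genes in replicates 1 to 4, where the shares of all protein-coding genes were 95.7%, 94.5%, 97.5% and 96.8%. One of a library's 2000 strongest regions was present for 3, 5, 2 and 2 genes, a mean of 3 ± 1.41 (SD, n = 4), against 21.6%, 21.4%, 22.7% and 22.1% of protein-coding genes. xol-1 and dpy-28 were in this group in all 4 libraries, against 5.98% of protein-coding genes. her-1 was in it in replicates 1 and 2, and sdc-2 and dpy-30 in replicate 2. With the 5000 strongest regions, 8, 7, 5 and 7 genes had one in replicates 1 to 4, against 44.3%, 42.1%, 47.8% and 45.9% of protein-coding genes. xol-1 and dpy-28 were among them in all 4 libraries, which follows from the count with 2000 and adds nothing to it. The windows of the 10 genes had a median length of 18717 bp, against 14027 bp for protein-coding genes, and the genes themselves of 6717 bp, against 2027 bp. The part of window length in these counts was not tested.

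Promoters were counted apart. In the window from 1000 bp upstream to 200 bp downstream of an annotated 5′ end, 0 of 10 genes had an IDR peak, against 2.61% of protein-coding genes. A pooled region was there for 3 of 10 (sdc-2, dpy-27 and dpy-30), against 36.7%. Of the 36 pooled regions in the 10 windows, 13 had the listed gene as the nearest protein-coding 5′ end, and 23 were nearer another gene. Their median signal was 14.8, against 14.2 over the whole pooled list.

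By density the libraries straddled the genome's value. In the 194.6 kb of windows, replicates 1 to 4 had 66, 61, 50 and 57 regions, a mean of 58.5 ± 6.76 (SD, n = 4). Per 10 kb this is 3.39, 3.13, 2.57 and 2.93, against 2.99 in the nuclear genome in each library. Replicates 1 and 2 were both above that value and replicates 3 and 4 both below it. Their fragmentation labels differ in the same way, and 2 libraries against 2 cannot give an exact two-sided p below 0.33. The pooled list had 1.85 regions per 10 kb in the windows, against 2.54 in the nuclear genome.

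**Figure D4:**
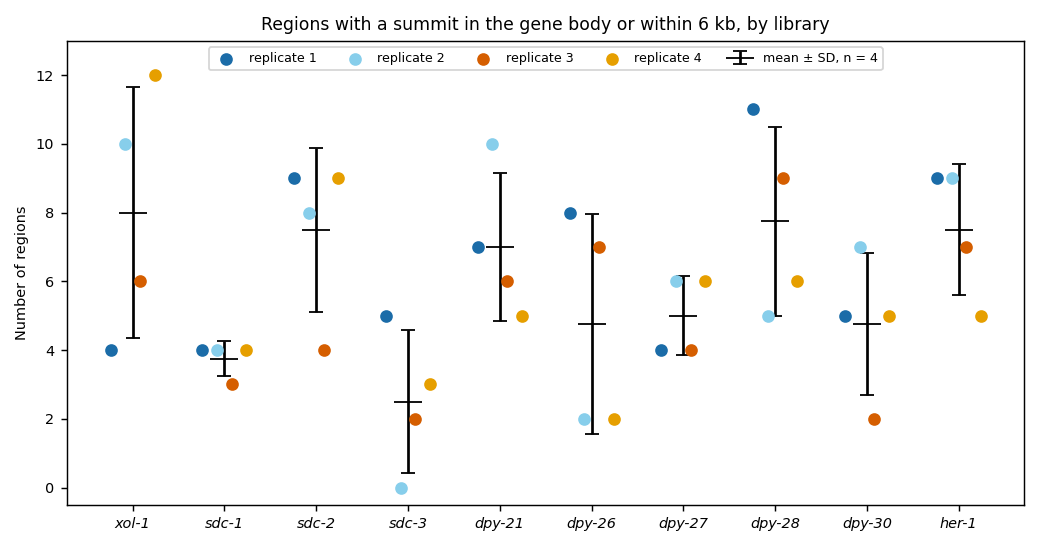
Number of regions in each gene's window by library (points), with the mean and SD over 4 libraries (bars). Counts run from 0 at sdc-3 in replicate 2 to 12 at xol-1 in replicate 4, and sdc-1 has the narrowest spread, 3 to 4.

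Few sites recurred. Of the 36 pooled regions, 5 were overlapped by a region of all 4 libraries (13.9%), against 11.9% of all pooled regions. These 5 are the sites of xol-1, dpy-28 and her-1 and the overlapping pair at dpy-27, so they stand for 4 places. A further 4 regions were matched in 3 libraries, 14 in 2 and 13 in 1. In the other direction, 24.2%, 42.6%, 26.0% and 35.1% of the library regions near the genes overlapped a pooled region in replicates 1 to 4, a mean of 32.0% ± 8.54 (SD, n = 4). For the whole libraries the shares were 42.5%, 50.2%, 39.3% and 50.4%, higher in each library.

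By annotation, 18 of the 36 summits fell between genes, 10 in introns of protein-coding genes (27.8%) and 6 in coding exons (16.7%). Over all nuclear pooled regions 43.8% fell between genes, 33.4% in introns and 12.4% in coding exons. Within 50 bp of the summit, CANNTG was found at 10 of 36 regions (27.8%), against 30.2% of nuclear pooled regions. CAGGTG, an E-box that Snail proteins are known to bind, was found at 0 of 36, against 2.14%. Within 100 bp it was also at 0 of 36, against 4.25%. Over only 36 regions, a count of 0 is close to both of these small shares. Both motifs were searched on both strands, and CAGGTG is one of the sequences that CANNTG covers.

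Among 45 other genes of these pathways, 7 had an IDR peak in the same window (15.6%) and 43 a pooled region (95.6%), against the 12.0% and 90.3% given above for all protein-coding genes. Partners of the complex were mix-1, the SMC2-type condensin subunit, and capg-1. Near mix-1 an IDR peak of signal 55.8 (rank 599) lay 16103 bp from the 5′ end and was nearer M106.8. It ranked 973, 484 and 930 in replicates 2 to 4 and was not listed in replicate 1, and capg-1 had no IDR peak. The other 4 condensin genes (smc-4, capg-2, hcp-6 and kle-2) had none, and hcp-6 had no pooled region either. Of 8 genes of SET1 complexes and H4 lysine 20 methylation, 2 had an IDR peak. At ash-2, which encodes a subunit of the complexes that share DPY-30, the peak lay in the promoter, 68 bp from the nearest annotated 5′ end of ash-2 (11980186 to 11980529 on chromosome II). Its pooled signal was 94.1 and its rank 163, with ranks of 354, 65, 125 and 2890 in replicates 1 to 4. At set-2 the peak (rank 767) lay nearer mmab-1. set-4 and set-1 came next in that list, with pooled signals of 41.8 and 34.5 and no IDR peak, then rbbp-5 with 23.5 and cfp-1 with 20.4. The set-1 region was nearer jhdm-1, at 423 bp from its 5′ end, and the cfp-1 region was nearer noah-2.

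Of the elements that count X chromosomes against autosomes, sea-2 alone of 5 genes had an IDR peak (signal 50.9, rank 739). fox-1 (pooled signal 40.6), ceh-39 (25.8), sex-1 (18.0) and sea-1 (17.5) had pooled regions only. Those of sex-1 and sea-1 were nearer myrf-2 and srx-97. Downstream of her-1, none of tra-1, tra-2, tra-3, fem-1, fem-2 and fem-3 had an IDR peak. The strongest pooled regions of that list were near tra-2 (41.9), fem-2 (40.1), tra-1 (19.5) and fem-3 (18.4). The first of these lay 30 bp from the 5′ end of ceh-38 and the second 231 bp from that of tag-267. The region near fem-3 was nearer C01F6.14.

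Of 13 genes of germline sex determination, laf-1 (rank 768) and atx-2 (signal 45.3, rank 967) had an IDR peak, both nearer another gene, swsn-3 and ecps-1. Pooled regions were next strongest near gld-1 (43.0), tra-4 (42.0), mog-4 (41.8) and nos-3 (37.7). The gld-1 region lay 94 bp from the 5′ end of T23G11.11 and the tra-4 region 280 bp from that of kin-29. Those of mog-4 and nos-3 were nearest the listed gene. Of 7 genes of sexual differentiation, mab-3, a DM-domain factor that drives male traits, had an IDR peak 3413 bp upstream of its 5′ end (9728552 to 9728895 on chromosome II). Its pooled signal was 68.9 and its rank 360, and in replicates 1 to 4 the site ranked 909, 377, 85 and 776, so it was among the first 1000 regions of all 4. mab-23 (30.1), lin-29 (rank 2359), dmd-3 (17.4) and mab-9 (13.2) followed with pooled regions alone, and egl-1 had none. The mab-23 region lay 53 bp from the 5′ end of kvs-2, and those of lin-29 and mab-9 were nearer hmg-12 and slc-36.2.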

How the data were processed

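The deposited narrowPeak files on ce11 from 4 biological replicates of one strain were analysed. The file records state that a library's list came from 1 alignment and the same single control, the pooled list from all 4 alignments, and the IDR list from the pooled and single lists. Peak caller, aligner, settings and read depth: not given in the sources used here. The control was not used here. The signal of each region is the authors' own score, used only within a list. Nothing says how the replicates were raised, so the SD may be partly technical. Replicate 1 lists 6 coordinates more than once, all retained. Regions lay within the WBcel235 chromosome lengths. The number of per-sample columns left out was 0.

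Genes came from Ensembl release 115 and sequence from the RefSeq copy of WBcel235. Coordinates are 1-based. A region was assigned to a gene by its summit, in the gene body or within 6 kb. Sites were matched by an overlap of at least 1 bp. E-boxes were searched within 50 bp of the summit. Genes named are the 10, those of the other pathway lists with an IDR peak, up to 4 more per list by pooled signal, and nearer neighbours; hcp-6, capg-1, smc-4, capg-2, kle-2 and egl-1 were named as members without a peak. The members and lists were chosen with earlier results of these data known, and GCGCAGGG and the IDR peaks holding it after the sequences were seen. No test was made. The counting step was tested on simulated data. Alternatives were 2 and 10 kb windows, overlap in place of the summit, other numbers of strongest regions, other overlaps and motif windows, and leaving out each library. Python 3.11.15, numpy 2.4.6, pandas 2.3.3 and matplotlib 3.10.9 were used.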

Additional observations from a re-analysis of the deposited data

Results flagged for a closer look

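Of 25 sets of 4 library values, 2 held a value far from the other 3, and chance flags about 1 set in 20. Both concern sdc-1 in replicate 3. The number of regions near sdc-1 was 3 in replicate 3 and 4 in each of the other libraries, so the gap is a single region. With the other 3 values equal, any difference is flagged, so the rate of 1 in 20 does not apply to this set. The strongest sdc-1 region of replicate 3 ranked 17471, against 3225, 3975 and 2518 in replicates 1, 2 and 4. Replicate 3 had no region over the transfer RNA gene upstream of sdc-1, where replicates 1 and 2 had their strongest, and none near the sdc-1 5′ end, where replicate 4 had its own. The cause was not tested.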

How the results depend on the processing

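The 10 kb window and overlap in place of the summit left 2 IDR peaks at 2 genes and 9 genes with a pooled region. With 2 kb, IDR peaks and the genes with one fell to 0 (6.11% of protein-coding genes had one). Pooled regions fell to 20 and regions per library to 29.75. Genes with one of the 2000 strongest regions fell to 0.25 per library (11.7% of protein-coding genes). Sites shared by all 4 libraries fell to 2, the overlapping pair at dpy-27, which stands for 1 place. Regions per library were 74.5 with 10 kb and 21.0 among the 10000 strongest. With 5000 strongest regions, 6.75 of the 10 genes per library had one, against 42.1% to 47.8% of protein-coding genes. CANNTG within 100 bp was at 16 sites (44.4%, against 51.5% of nuclear pooled regions); GCGCAGGG was at 1 site in each motif window tried, an alternative chosen after seeing the data. Leaving out each library in turn gave 56.0 to 61.33 regions, 2.33 to 3.33 genes with a strong region and 5 to 7 shared sites. The mean rank of the strongest region stayed at 104.0 to 179.7 for xol-1 and 63.0 to 99.0 for dpy-28. Over all 4 libraries that mean was 6797.2 for sdc-1, 10014.5 for dpy-26 and 4120.2 for her-1. It moved to stronger values of 3239.3 for sdc-1 without replicate 3, 3896.0 for dpy-26 without replicate 2 and 1678.0 for her-1 without replicate 4. The weakest means with 1 library left out were 8223.7, 12663.7 and 5248.7 in the same order. No paired analysis was possible because there is 1 group. Depth is unknown, and absence from a list of fixed length does not show absence of signal.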

Other observations

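The letters GCGCAGGG found upstream of xol-1 were also looked for at every nuclear IDR peak, after the xol-1 sequence had been seen. Within 50 bp of the summit they lay at 9 of 1007 peaks, and all 9 were on X, which holds 258 of these peaks. On the autosomes they lay at 0 of 749. Among pooled regions they lay at 14 of 5254 on X (0.266%) and at 6 of 20212 on the autosomes (0.0297%). The genome itself holds 81 copies on X, 4.57 per Mb, and 233 on the autosomes, 2.82 per Mb. With windows of 100 bp on each side, 14 X peaks and 1 autosomal peak held the letters.

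The 9 peaks include some of the strongest of the list. By pooled signal, the first 6 ranked 30, 31, 45, 48, 49 and 52 among 1033, and their nearest protein-coding genes were Y41G9A.17, cest-16, gtr-1, xol-1, ins-39 and F20B6.9. The others were near col-185 (rank 107), Y41G9A.17 again (206, a region that overlaps the first) and T24D8.6 (623). The letters occurred more than once at 2 of the 9, at xol-1 and near cest-16 (6296466 to 6296769 on X). Recruitment sites of the dosage compensation complex were not mapped here, and no test was made of this pattern.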
